A study of Mus musculus with 6 samples.

Results

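The genes described here are 38 genes of the interferon response and of nucleic acid sensing, chosen by symbol: sensors, transcription factors, the ISG15 conjugation pathway, antiviral effectors, interferon-induced GTPases, antigen presentation genes and other interferon-induced genes. All 38 were among the 22099 genes of the deposited table. Of these, 34 reached 1 RPKM in at least 2 of the 6 libraries and are described, out of 11345 genes that did so. RPKM is a read number scaled to the length of the transcript and to the reads of the library. Levels can thus be compared roughly between genes and between libraries. Summed RPKM still differed, from 287007 in wt replicate 2 to 345766 in ZnF1 mutant replicate 1, and libraries were scaled further only in the alternatives. The 4 genes that did not reach 1 RPKM in 2 libraries were Ifit3, Oas1a, Mx2 and Ifi44, whose highest values were 0.9, 1.1, 0.6 and 1.1 RPKM. Among the 34, 29 had a library at 1 RPKM or more in all 3 groups. Ifih1 had one in the 2 mutant groups only, and Ifit1, Oas2, Mx1 and Rsad2 in wt and ZnF1 mutants only.

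The study sequenced polyadenylated RNA from cultures of C57BL/6 mouse bone marrow, transformed in vitro by the BCR-ABL p185 oncogene. Whole marrow was transduced at day 0 with a retrovirus that also carries a YFP reporter, and RNA was taken at day 14. The 3 groups were wild type (wt), Ikaros ZnF1-/- (called ZnF1 mutant here) and Ikaros ZnF4-/- (ZnF4 mutant), with 2 biological replicates in each. Ikzf1 encodes Ikaros, which regulates lymphoid genes through its zinc fingers and suppresses B cell leukaemia, and the mutants lack either finger 1 or finger 4. All 6 cultures, the wt ones too, carried BCR-ABL p185. The labels describe the cells as transformed pro-B leukaemia cells and do not say that they were sorted, so cells of the original marrow may remain.

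Interferons are secreted proteins that cells release when sensors such as RIG-I (Ddx58) and MDA5 (Ifih1) meet foreign nucleic acid. Type I interferons signal through the receptor Ifnar1 and Ifnar2, the kinases Jak1 and Tyk2 and a complex that holds Stat2 and Irf9 and binds a promoter element called ISRE. Interferon gamma signals through Ifngr1 and Ifngr2 to factors that bind the GAS element. Many of the genes induced in this way are themselves sensors, receptors or transcription factors, and cells also express many of them at a basal level without interferon.

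All 15 B lineage markers were expressed in these libraries, with summed levels of 3305.0 to 5776.5 RPKM. Other cells were represented too. The 15 macrophage markers summed to 396.3 and 451.6 RPKM in wt, 1104.7 and 1226.4 in ZnF1 mutants and 418.9 and 456.5 in ZnF4 mutants, where the replicate 1 value is given first, as in all values by library below. Stromal markers, of which 11 of 14 were expressed and Lum was listed at 0, summed to 94.5 and 103.0, 378.7 and 206.3, and 98.0 and 91.3 RPKM. Granulocyte markers (9 of 12 expressed) stood apart in single libraries, with sums of 536.0 in wt replicate 1 and 1642.2 in ZnF1 mutant replicate 2 against 1.2 to 55.0 in the other 4. Plasmacytoid dendritic cells, strong producers of interferon, left little trace in their defining genes: Siglech and Ccr9 were at 0.1 RPKM or less and Klk1 at 0 in every library. The 5 of 10 markers that were expressed were Bst2, Irf8, Tcf4, Spib and Ly6d, which B lineage cells also express. Spib (28.0 to 181.3 RPKM) and Ly6d (4.0 to 73.9 RPKM) were both lowest in the ZnF4 mutant libraries. Conventional dendritic cell markers (2 of 7 expressed, Xcr1 and Cd209a at 0) were also low. Of the T and NK cell markers, 3 of 15 were expressed, and Cd3e, Cd3g, Cd8a, Ncr1 and Tbx21 were at 0. Of these 3, Cd4 and Gzmb were at 5.5 RPKM or less. The third, Lck, was at 46.2 and 27.4 RPKM in wt, 53.4 and 26.6 in ZnF1 mutants and 18.1 and 15.0 in ZnF4 mutants. Ikzf1 itself was at 89.2 and 85.9 RPKM in wt, 101.5 and 116.7 in ZnF1 mutants and 188.2 and 170.2 in ZnF4 mutants, a gene-level value that does not show whether 1 zinc finger is missing. In whole cultures like these, a change in the number of cells of a type and a change in RNA per cell cannot be told apart.

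The promoters of 28 of the 38 genes were found in the RefSeq table of build GRCm38.p6 (32 promoters, 250 bases before to 50 after the start). Dhx58, Zbp1, Usp18, Oas2, Mx1, Mx2, Nlrc5, Parp9, Parp14 and Rtp4 had no entry. The ISRE letters (gaaa, any 2 bases, then gaaa), searched on both strands, were in 15 of the 32 promoters (46.9%), against 3.44% of all 32851 promoters of the same length. The GAS letters ttcnnngaa, also on both strands, were in 8 (25.0%) against 8.3%. The letters tgggaa, the core of the sequence that Ikaros binds, were in 13 (40.6%) against 25.6% of all promoters. The 4 promoters below belong to genes that differed between the cultures and hold the ISRE letters, which are in capitals and lie on the opposite strand in all 4, so that they read tttc, 2 bases, tttc. Each is given on the strand of its gene, from 250 bases before to 30 bases after the start.
Gbp3: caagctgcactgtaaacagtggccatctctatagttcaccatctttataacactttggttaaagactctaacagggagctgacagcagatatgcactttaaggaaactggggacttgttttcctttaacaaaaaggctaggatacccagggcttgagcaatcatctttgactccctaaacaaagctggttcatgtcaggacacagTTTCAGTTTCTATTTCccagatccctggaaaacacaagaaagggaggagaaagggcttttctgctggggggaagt
Ddx58: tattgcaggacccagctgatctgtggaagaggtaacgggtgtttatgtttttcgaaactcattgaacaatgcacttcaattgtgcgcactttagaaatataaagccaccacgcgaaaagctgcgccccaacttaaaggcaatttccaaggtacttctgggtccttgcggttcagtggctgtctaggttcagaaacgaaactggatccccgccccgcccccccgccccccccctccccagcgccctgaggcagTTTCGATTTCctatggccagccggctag
Stat2: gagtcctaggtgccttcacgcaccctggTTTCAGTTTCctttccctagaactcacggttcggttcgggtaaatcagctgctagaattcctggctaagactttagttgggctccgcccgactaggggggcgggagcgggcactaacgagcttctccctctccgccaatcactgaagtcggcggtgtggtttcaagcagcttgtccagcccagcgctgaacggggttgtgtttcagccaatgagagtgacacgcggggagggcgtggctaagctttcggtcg
Gbp2: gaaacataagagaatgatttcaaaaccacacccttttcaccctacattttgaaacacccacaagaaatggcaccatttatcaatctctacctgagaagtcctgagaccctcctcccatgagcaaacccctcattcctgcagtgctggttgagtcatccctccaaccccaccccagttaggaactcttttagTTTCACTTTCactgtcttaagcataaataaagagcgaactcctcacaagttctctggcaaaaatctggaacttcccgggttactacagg
In build GRCm38.p6 the stretches are chr3:142559794-142560073 on the plus strand (Gbp3, at 1 of its 2 start sites), chr4:40239796-40240075 on the minus strand (Ddx58), chr10:128270248-128270527 on the plus strand (Stat2) and chr3:142620413-142620692 on the plus strand (Gbp2). In Gbp3 the capitals are 2 overlapping matches that begin 45 bases before the start, in Gbp2 1 match begins 59 bases before it, in Stat2 1 match begins 222 bases before it, and in Ddx58 1 match begins 2 bases after it. A match describes the letters only and does not show that a factor was bound in these cells.

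Genes for interferons themselves were almost silent. Of 19 interferon genes in the table (type I, type II and type III), 17 were listed at 0 in all 6 libraries, and Ifna4 and Ifng reached 0.1 RPKM in 1 library each. Near-identical copies such as the Ifna genes are uncertain, because the sources used here do not say how reads shared between copies were counted. The interferon-induced genes nevertheless spanned a wide range of levels. The highest means over the 6 libraries were those of Psmb8 (168.4 RPKM) and Psmb9 (88.38), which encode subunits of the immunoproteasome, and of Gbp2 (56.05), a guanylate-binding protein. The lowest means were those of Mx1 (0.8), Oas2 (1.017) and Ifih1 (1.267). Of the 9 expressed antiviral effectors, Ifit1, Oas2, Oas3, Oasl1, Oasl2, Mx1 and Rsad2 sat at the lower end, with means between 0.8 and 1.717 RPKM, while Ifit2 was at 6.417 and Bst2 at 41.52.

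**Figure D1:**
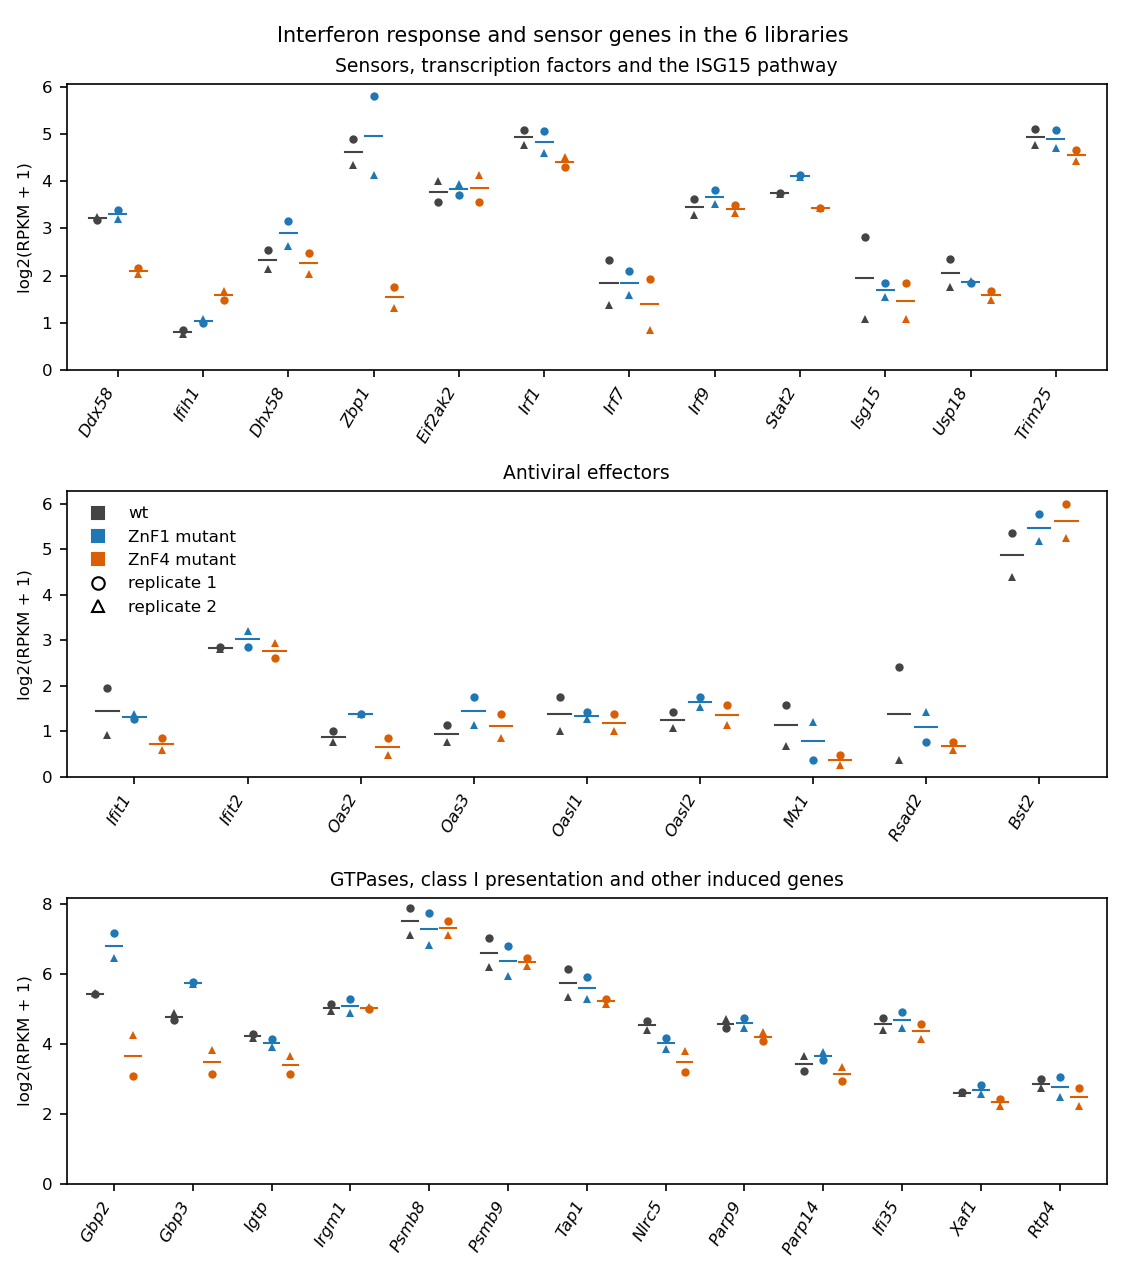
Levels of the 34 expressed genes as log2(RPKM + 1), by role in 3 panels, with 1 point per library (circles replicate 1, triangles replicate 2; colours give the group) and a bar at each group's mean. Gbp2, Gbp3, Zbp1 and Ddx58 stand lowest in both ZnF4 mutant libraries, and Psmb8 and Psmb9 have the highest levels.

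The ZnF4 mutant cultures had lower levels of most of these genes than wt. The sensor Ddx58, the GTPase genes Gbp2 and Gbp3, the sensor Zbp1 and the class I regulator Nlrc5 showed the largest differences downwards, and Ifih1 and Bst2 went upwards. In log2(RPKM + 1), 29 of the 34 genes had a lower mean in ZnF4 mutants and 5 a higher one, with a median difference of -0.34. Of all genes tested, 42.7% had a lower and 56.8% a higher mean, and the median was 0.04. The 29 include Ifit1, Oas2, Mx1 and Rsad2, which reached 1 RPKM in wt and ZnF1 mutant libraries only. Without the filter on low values, 30 of the 38 genes had a lower mean and 7 a higher one. Without wt replicate 1, 20 of 32 genes had a lower and 12 a higher mean, with a median of -0.14. Both ZnF4 mutant libraries were below both wt libraries for 15 genes, against 13.8% of all genes, and above both for 1 gene (Ifih1), against 17.8%. With limma fitted across all genes and Benjamini-Hochberg adjustment, 1 gene (Ddx58) fell and 0 rose, where 2.72% of all genes were called (1.43% higher and 1.3% lower). When the replicate number was added as a block, since same-numbered libraries were alike, 6 genes fell (Ddx58, Zbp1, Gbp3, Nlrc5, Stat2 and Trim25) and 2 rose (Ifih1 and Bst2), where 15.9% of all genes were called (8.02% higher and 7.92% lower). The share of the 34 genes called was 2.94% without and 23.5% with the block.

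In ZnF1 mutants the genes lay on either side of wt. A higher mean was found for 19 genes and a lower one for 15 (47.5% and 52.2% of all genes), with a median log2 difference of 0.05 (all genes tested, -0.01). Both ZnF1 mutant libraries were above both wt libraries for 7 genes (Ifih1, Dhx58, Stat2, Oas2, Oasl2, Gbp2 and Gbp3), against 18.3% of all genes, and below them for 2 (Igtp and Nlrc5), against 12.7%. By limma without the block 0 of the 34 genes passed the threshold, as did 0.0% of all genes tested. At an unadjusted p under 0.05 there were 4 (Gbp2, Gbp3, Oas2 and Stat2) of the 34 and 1281 of all genes. With the block, Dhx58, Stat2, Bst2 and Gbp3 rose, 4 genes in all, where 13.2% of all genes were called (10.4% higher). At 11.8%, the share of the 34 genes called was close to that of all genes. The macrophage and stromal marker sums were higher in these same ZnF1 mutant libraries, and their part in these differences was not tested.

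The mutants differed more from each other than either did from wt by the number of genes called. Without the block 4 genes were lower in ZnF4 than in ZnF1 mutants (Zbp1, Gbp2, Gbp3 and Ddx58), where 5.37% of all genes tested were called (3.75% lower). With the block 11 were lower and 1, Ifih1, was higher, where 35.1% of all genes were called (19.2% lower, 15.9% higher). The share of the 34 genes called was thus 11.8% without the block, and with it 35.3%, close to that of all genes. A lower mean in ZnF4 mutants was found for 30 genes and a higher one for 4 (45.2% and 54.6% of all genes). The median log2 difference was -0.37, against 0.04 for all genes. The 30 include Ifit1, Oas2, Mx1 and Rsad2, which reached 1 RPKM in wt and ZnF1 mutant libraries only. Without the filter on low values, 31 of the 38 genes had a lower mean and 7 a higher one. Both ZnF4 mutant libraries were below both ZnF1 mutant libraries for 18 genes, against 21.8% of all genes, and above them for Ifih1 alone, against 21.7%. The 3 comparisons share libraries, so their values for a gene are not independent of each other.

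**Figure D2:**
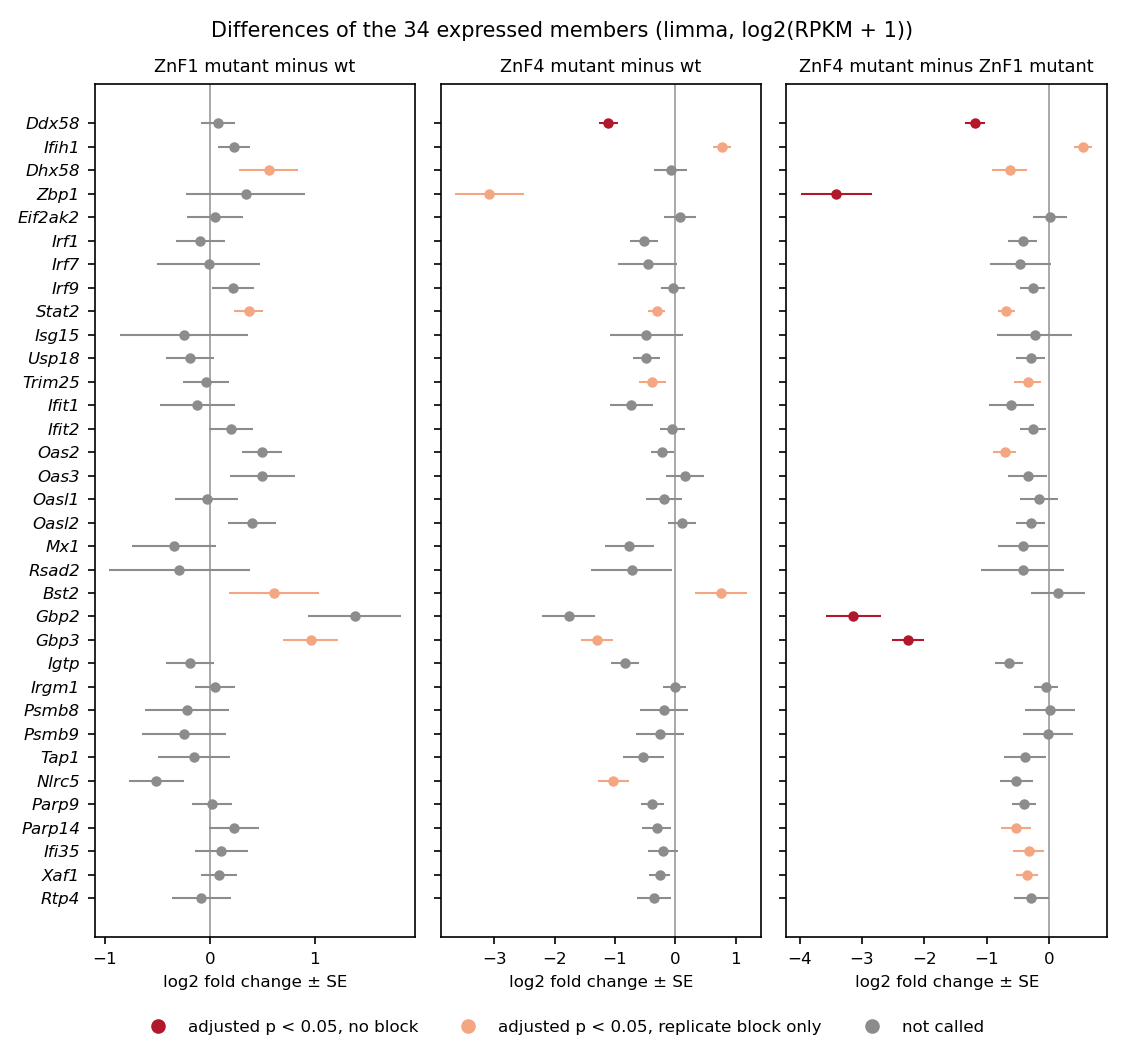
Log2 fold change of the 34 expressed genes in the 3 comparisons, from limma on log2(RPKM + 1), with bars of 1 standard error from the fit without the replicate block. Dark red marks an adjusted p under 0.05 without the block, orange with the block only, grey neither; most points of the middle and right panels lie left of 0.

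Among the receptors of interferons, the gene for the ligand-binding chain of the interferon gamma receptor, Ifngr1, differed most. Ifngr1 was at 85.3 and 82.8 RPKM in wt, 150.6 and 129.5 in ZnF1 mutants and 24.9 and 28.8 in ZnF4 mutants, so the 3 groups did not overlap. It fell in ZnF4 mutants, with a log2 difference of -1.61 from wt (limma adjusted p = 0.017 without and 0.0018 with the block) and -2.34 from ZnF1 mutants (0.0097 and 0.00082). Against wt it was higher in ZnF1 mutants by 0.73, which passed with the block only (0.15 and 0.022). Ifnar1, a chain of the type I receptor, was at 13.9 and 14.6, 20.6 and 17.2, and 12.4 and 12.7 RPKM, and its partner Ifnar2 at 41.1 and 42.7, 48.9 and 48.3, and 32.0 and 32.2. Ifnar2 fell in ZnF4 mutants with the block, with a log2 difference of -0.37 from wt (limma adjusted p = 0.35 without and 0.024 with it). Both were lower in ZnF4 than in ZnF1 mutants with the block only. The log2 differences were -0.55 for Ifnar1 (limma adjusted p = 0.13 without and 0.016 with it) and -0.58 for Ifnar2 (0.079 and 0.0046).

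Of the kinases downstream of the receptors, Jak2 was called in 1 comparison with the block, and Jak1 and Tyk2 in none. Jak1 was at 70.2 and 79.2 RPKM in wt, 68.6 and 67.9 in ZnF1 mutants and 63.3 and 70.7 in ZnF4 mutants. Tyk2 was at 14.8 and 9.1, 15.6 and 11.3, and 13.2 and 8.9, with the replicates of a group farther apart than the group means. Jak2, a kinase of the interferon gamma receptor that was singled out after its values were seen, lay between 9.0 and 17.1 RPKM with overlapping groups, and was lower in ZnF4 than in ZnF1 mutants with the block, by a log2 difference of -0.40 (limma adjusted p = 0.013, and 0.56 without it). Over the 15 expressed genes of receptors and signalling on a list of 16, 1 fell and 0 rose in ZnF4 mutants against wt without the block, and 6 fell and 1 rose with it, which is 6.67% and 46.7% of the 15, against 2.72% and 15.9% of all genes. In ZnF1 mutants against wt 0 were called without the block and 5 rose with it, 33.3% against 13.2% of all genes. Between the mutants 2 were lower in ZnF4 mutants and 0 higher without the block, and 10 and 0 with it, or 13.3% and 66.7% against 5.37% and 35.1% of all genes.

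The 5 sensors did not move together. Ddx58 encodes RIG-I, which detects RNA that ends in a triphosphate. Ddx58 was at 8.1 and 8.5 RPKM in wt, 9.5 and 8.2 in ZnF1 mutants and 3.5 and 3.1 in ZnF4 mutants. The ZnF4 mutant libraries were the lowest by a wide margin, and the other 2 groups overlapped. It fell in ZnF4 mutants, with a log2 difference of -1.11 ± 0.16 (SE) from wt (limma adjusted p = 0.034 without and 0.0032 with the block) and -1.19 from ZnF1 mutants (0.025 and 0.0018). The fold change from wt stayed between -1.18 and -1.05 when any 1 library was left out, but each such fit without the block raised the adjusted p to between 0.08 and 0.27, while all 6 fits with the block kept it under 0.05.

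Ifih1 encodes MDA5, the sensor of long double-stranded RNA, and went the other way. It was at 0.8 and 0.7 RPKM in wt, 1.0 and 1.1 in ZnF1 mutants and 1.8 and 2.2 in ZnF4 mutants, with no overlap between the groups. It rose in ZnF4 mutants by 0.77 ± 0.12 (SE with the block) from wt (limma adjusted p = 0.017, and 0.078 without the block). Against ZnF1 mutants it was higher by 0.55 (limma adjusted p = 0.026 with and 0.12 without the block). Ifih1 reached 1 RPKM in the 2 mutant groups only. At these levels the added 1 RPKM makes the log2 difference smaller than that of the RPKM values, whose means had a ratio of 2.67 between ZnF4 mutants and wt. The RefSeq promoter of Ifih1 also holds the ISRE letters.

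Dhx58 encodes LGP2, a regulator of both sensors without a signalling domain. It was at 4.8 and 3.4 RPKM in wt, 7.9 and 5.2 in ZnF1 mutants and 4.6 and 3.1 in ZnF4 mutants, highest in both ZnF1 mutant libraries with the other groups close together. With the block it rose in ZnF1 mutants against wt by 0.56 (limma adjusted p = 0.020, and 0.65 without it). It was lower in ZnF4 than in ZnF1 mutants, with a log2 difference of -0.63, again with the block only (0.0066 and 0.32). The macrophage marker sums were higher in ZnF1 mutants as well, and their part in the difference was not tested.

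Zbp1 encodes a sensor of Z-form nucleic acid that can trigger necroptosis, and had the largest fold change of the 34 genes. It was at 28.8 and 19.3 RPKM in wt, 54.4 and 16.4 in ZnF1 mutants and 2.4 and 1.5 in ZnF4 mutants. The ZnF4 mutant values were far below all others, whereas ZnF1 mutants straddled wt. The ratio of the ZnF4 mutant mean to the wt mean was 0.0811. The log2 difference of ZnF4 mutants from wt was -3.08 ± 0.57 (SE without the block). It passed with the block (limma adjusted p = 0.0047) and not without it (0.072). The difference from ZnF1 mutants was -3.41 (limma adjusted p = 0.0025 with and 0.036 without the block). Leaving out single libraries left this difference from wt between -3.35 and -2.8. Both RefSeq transcripts of Zbp1 were low in ZnF4 mutants: the one of 1995 bases was at 8.6 and 5.8 RPKM in wt and at 0.4 and 0.4 in ZnF4 mutants, and the one of 785 bases at 20.2 and 13.5 and at 2.0 and 1.1. Zbp1 was 3.32 times as high in ZnF1 mutant replicate 1 as in replicate 2.

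Eif2ak2, the kinase PKR that stops translation when it binds double-stranded RNA, did not follow the other sensors. Its levels ranged from 10.7 to 16.5 RPKM, its log2 differences were 0.05, 0.08 and 0.02 in the 3 comparisons, and replicate 2 was above replicate 1 in every group.

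Downstream of the sensors, the adaptor Mavs of RIG-I and MDA5 was at 29.2 and 20.7 RPKM in wt, 35.6 and 21.6 in ZnF1 mutants and 23.5 and 17.1 in ZnF4 mutants, where the replicates of a group were far apart. With the block Mavs was lower in ZnF4 than in ZnF1 mutants, by a log2 difference of -0.45 (limma adjusted p = 0.019, and 0.57 without it), a call that was lost without any 1 of the wt or ZnF4 mutant libraries (0.055 to 0.12). Irf3, the transcription factor that Mavs activates, was at 30.6 and 21.0, 32.2 and 22.9, and 32.4 and 21.9 RPKM, nearly the same in the 3 groups within each replicate. Tmem173, which encodes STING, the adaptor of cytosolic DNA sensing, was at 55.9 and 41.3 RPKM in wt, 86.7 and 54.5 in ZnF1 mutants and 25.6 and 24.3 in ZnF4 mutants. Tmem173 fell in ZnF4 mutants with the block, with a log2 difference of -0.92 from wt (limma adjusted p = 0.017, and 0.24 without it). Of 29 expressed genes of sensing and its signalling, 0 were called in ZnF4 mutants against wt without the block, and 2 fell and 1 rose with it, which is 10.3% of the 29 against 15.9% of all genes. In ZnF1 mutants against wt 0 were called without the block, and 7 rose and 1 fell with it (27.6%, against 13.2% of all genes). Between the mutants 2 were lower in ZnF4 mutants and 0 higher without the block (6.9%, against 5.37%), and 12 and 4 with it (55.2%, against 35.1%).

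The 4 transcription factors on the list differed in how far they moved. Irf1, which is induced by interferon gamma, was at 33.0 and 26.2 RPKM in wt, 32.4 and 23.3 in ZnF1 mutants and 18.7 and 21.9 in ZnF4 mutants. The ZnF4 mutant libraries were lower than all others, but the log2 difference of -0.52 from wt did not pass in either fit (limma adjusted p = 0.51 without and 0.12 with the block). Stat2, a subunit of the complex that binds the ISRE, was at 12.4 and 12.3 RPKM in wt, 16.5 and 16.0 in ZnF1 mutants and 9.8 and 9.7 in ZnF4 mutants. Its replicates were close together and the groups did not overlap. With the block Stat2 rose in ZnF1 mutants against wt by 0.37 (limma adjusted p = 0.032) and fell in ZnF4 mutants, with a difference of -0.31 (0.043). Neither passed without the block (0.39 and 0.51). Between the mutants it differed by -0.68 (0.0033 with and 0.058 without the block).

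Irf9, the DNA-binding partner of Stat2, was at 11.3 and 8.7 RPKM in wt, 13.1 and 10.5 in ZnF1 mutants and 10.3 and 9.0 in ZnF4 mutants. Each mutant group overlapped with wt, and Irf9 passed in no comparison in either fit. Irf7, the factor that amplifies the production of type I interferon, was at 4.0 and 1.6, 3.3 and 2.0, and 2.8 and 0.8 RPKM. In Irf7 the 2 replicates of each group differed by more than the groups did, and all 3 groups overlapped. The other 5 expressed genes of the interferon regulatory factor list did not pass in any comparison in either fit, with log2 differences between -0.24 and 0.28. Irf3 and Irf5 were counted with the genes of sensing. Irf5, singled out after its values were seen, was called with the block only. It was higher in ZnF1 mutants than in wt by 0.56 (limma adjusted p = 0.033, and 0.71 without it). It was lower in ZnF4 than in ZnF1 mutants, by a log2 difference of -0.55 (limma adjusted p = 0.018, and 0.43 without it).

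The ISG15 pathway attaches the ubiquitin-like protein Isg15 to other proteins, and Usp18 removes it and dampens signalling from the type I receptor. Both were low, Isg15 at 1.1 to 6.0 RPKM and Usp18 at 1.8 to 4.1, and neither passed the threshold in a comparison. Isg15 was highest in wt replicate 1, 5.45 times the value of wt replicate 2. Trim25, the ubiquitin ligase that activates RIG-I and also acts with Isg15, was at 33.2 and 26.0 RPKM in wt, 32.6 and 24.9 in ZnF1 mutants and 24.3 and 20.6 in ZnF4 mutants, lowest in the ZnF4 mutants. Trim25 fell there with the block, with a log2 difference of -0.38 from wt (limma adjusted p = 0.031, and 0.71 without the block).

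Of the 9 expressed antiviral effectors, 0 were called in any comparison without the block, and with it Bst2 was called in both mutants against wt and Oas2 between the mutants. Bst2, which encodes tetherin, a membrane protein that holds budding virus at the cell surface, was at 40.1 and 19.9 RPKM in wt, 53.6 and 35.5 in ZnF1 mutants and 62.6 and 37.4 in ZnF4 mutants. Replicate 1 was the higher in each group and the groups overlapped, but within each replicate number both mutants were above wt. With the block Bst2 rose by 0.61 in ZnF1 mutants (limma adjusted p = 0.030, and 0.93 without it) and by 0.75 in ZnF4 mutants (0.013 and 0.72). Oas2, an enzyme that senses double-stranded RNA and makes the oligoadenylate that activates the nuclease RNase L, was at 1.0 and 0.7 RPKM in wt, 1.6 and 1.6 in ZnF1 mutants and 0.8 and 0.4 in ZnF4 mutants. With the block it was lower in ZnF4 than in ZnF1 mutants, with a log2 difference of -0.71 (limma adjusted p = 0.018, and 0.11 without it). Oas2 reached 1 RPKM in wt and ZnF1 mutant libraries only, so it entered the test through those groups.

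Mx1, a dynamin-like GTPase against influenza virus that is defective in most inbred mouse strains, was at 2.0 and 0.6 RPKM in wt, 0.3 and 1.3 in ZnF1 mutants and 0.4 and 0.2 in ZnF4 mutants. Its ZnF4 mutant values lay below both wt values, with a log2 difference of -0.76 that did not pass (limma adjusted p = 0.65, and 0.28 with the block). The other expressed effectors, Ifit1, Ifit2, Oas3, Oasl1, Oasl2 and Rsad2, lay between 0.3 and 8.3 RPKM in single libraries and did not pass in any comparison. In Rsad2, which encodes viperin, wt replicate 1 was at 4.3 RPKM and the other 5 libraries between 0.3 and 1.7. Rsad2, Mx1 and Ifit1 were highest in wt replicate 1, by 14.3, 3.33 and 3.22 times over wt replicate 2. For all 3 the next highest value was that of ZnF1 mutant replicate 2. These are the 2 libraries with the most granulocyte transcripts, and the part of those cells in these values was not tested.

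The GTPases included the largest differences after Zbp1. Gbp2 and Gbp3 are guanylate-binding proteins, which attack the vacuoles and membranes of intracellular pathogens. Gbp2 was at 41.4 and 42.3 RPKM in wt, 141.8 and 85.5 in ZnF1 mutants and 7.4 and 17.9 in ZnF4 mutants. Gbp3 was at 24.4 and 28.5, 53.0 and 51.5, and 7.8 and 13.1 RPKM. For both genes the ZnF1 mutants were above wt and the ZnF4 mutants below it, with no overlap. Gbp2 was lower in ZnF4 than in ZnF1 mutants, with a log2 difference of -3.14 ± 0.44 (SE) (limma adjusted p = 0.027 without and 0.0070 with the block). Against wt its differences of -1.77 in ZnF4 mutants and 1.38 in ZnF1 mutants passed in neither fit (0.15 and 0.29 without, 0.054 and 0.11 with the block).

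Gbp3 was also lower in ZnF4 than in ZnF1 mutants, with a log2 difference of -2.26 ± 0.26 (SE) (limma adjusted p = 0.019 without and 0.0017 with the block). With the block Gbp3 fell in ZnF4 mutants, with a difference of -1.30 from wt (0.010, and 0.084 without it), and rose in ZnF1 mutants by 0.96 (0.030, and 0.20 without it). The macrophage marker sums were alike in wt and ZnF4 mutants, with a median log2 difference of 0.08 over the 15 markers, and were higher in ZnF1 mutants, with a median of 1.35. The part of macrophages in the higher levels of ZnF1 mutants was not tested.

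Other guanylate-binding protein genes, looked at after the values of Gbp2 and Gbp3 were seen, were also lower in ZnF4 mutants. Gbp7 was at 141.6 and 183.0 RPKM in wt, 236.9 and 233.0 in ZnF1 mutants and 38.8 and 61.0 in ZnF4 mutants, and fell in ZnF4 mutants, with a log2 difference of -1.71 from wt (limma adjusted p = 0.044 without and 0.0041 with the block). Gbp5 was at 14.4 and 15.3, 38.2 and 34.0, and 4.0 and 5.6 RPKM, and fell there too, with a difference of -1.46 (0.027 and 0.0043). In the RefSeq annotation Gbp2, Gbp3, Gbp5 and Gbp7 lie close together on chromosome 3, and Gbp4 and Gbp9 on chromosome 5. Gbp4 was at 6.1 and 7.3 RPKM in wt, 6.6 and 6.2 in ZnF1 mutants and 1.1 and 2.5 in ZnF4 mutants. Gbp9 was at 4.3 and 6.5, 4.3 and 4.7, and 1.5 and 2.4 RPKM. Both fell in ZnF4 mutants against wt with the block, with log2 differences of -1.50 and -1.11 (0.0099 and 0.0065, against 0.068 and 0.12 without it), while their ZnF1 mutant values overlapped with wt. Genes of this family are similar in sequence, so the split of reads between them is uncertain.

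Irgm1 and Igtp belong to the other family of interferon-induced GTPases, the immunity-related GTPases. Irgm1 hardly differed, with levels of 28.5 to 37.4 RPKM and log2 differences between -0.05 and 0.05. Igtp lay between 7.7 and 18.2 RPKM, lowest in the ZnF4 mutants, with a log2 difference from wt of -0.83 that did not pass (limma adjusted p = 0.19, and 0.050 with the block).

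**Figure D3:**
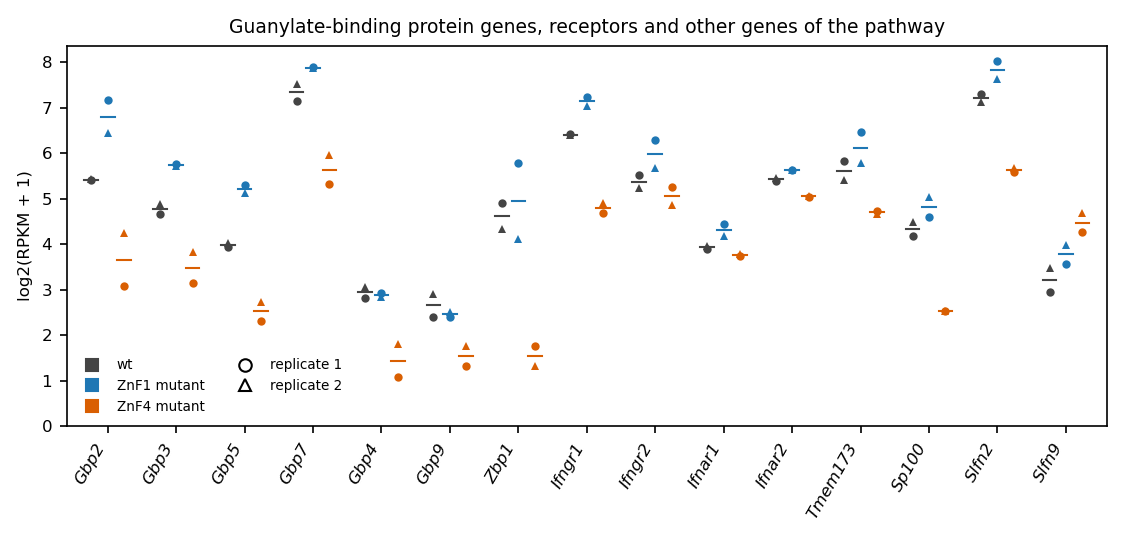
Levels as log2(RPKM + 1) of the expressed guanylate-binding protein genes, Zbp1, interferon receptors and other genes of the pathway in the 6 libraries, with 1 point per library (circles replicate 1, triangles replicate 2; colours give the group) and a bar at each group's mean. The Gbp genes, Zbp1, Ifngr1, Sp100 and Slfn2 are lowest in both ZnF4 mutant libraries, and Slfn9 is highest there.

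Among the genes of class I antigen presentation, the immunoproteasome subunits Psmb8 and Psmb9 differed more between replicates than between groups, and Nlrc5 was lower in ZnF4 mutants than in wt with the block only. Psmb8 was at 233.3 and 137.8 RPKM in wt, 210.3 and 112.8 in ZnF1 mutants and 178.9 and 137.3 in ZnF4 mutants. Psmb9 was at 128.7 and 71.6, 109.3 and 59.7, and 86.9 and 74.1 RPKM. In both genes replicate 1 was above replicate 2 in every group, and no comparison passed. Tap1, a subunit of the peptide transporter and a neighbour of both genes on chromosome 17, ranged from 34.4 to 69.2 RPKM and did not pass either. Nlrc5, the transactivator of class I genes, was at 24.2 and 19.9 RPKM in wt, 17.0 and 13.5 in ZnF1 mutants and 8.1 and 12.9 in ZnF4 mutants, highest in both wt libraries. It fell in ZnF4 mutants with the block, with a log2 difference of -1.03 from wt (limma adjusted p = 0.049, and 0.16 without it). Of 16 other expressed class I genes, 0 were called in ZnF4 mutants against wt without the block, and 3 fell with it, a share of 18.8% that was near the 15.9% of all genes. In ZnF1 mutants against wt 0 were called in either fit, and 5 were lower in ZnF4 than in ZnF1 mutants with the block (31.2%, against 35.1% of all genes).

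The remaining interferon-induced genes were lower in ZnF4 than in ZnF1 mutants by small amounts. Parp14, an ADP-ribosyltransferase, was at 8.3 and 11.5 RPKM in wt, 10.6 and 12.7 in ZnF1 mutants and 6.6 and 9.0 in ZnF4 mutants. Ifi35 was at 25.5 and 20.1, 28.7 and 21.0, and 22.7 and 16.6 RPKM. Xaf1, a pro-apoptotic factor, was at 5.1 and 5.0, 6.0 and 4.9, and 4.4 and 3.7 RPKM. Within each replicate number all 3 were lowest in the ZnF4 mutant, and with the block they were lower there than in ZnF1 mutants, with log2 differences of -0.53, -0.32 and -0.35 (limma adjusted p = 0.010, 0.024 and 0.042, against 0.32, 0.61 and 0.36 without it). Parp9 (15.8 to 25.7 RPKM) and Rtp4 (3.7 to 7.3 RPKM) did not pass in any comparison. Reads of Parp9 may be shared with Dtx3l, which overlaps it.

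Replicates differed in a way that cut across the groups. Replicate 1 was above replicate 2 in all 3 groups for 17 of the 34 genes, where this held for 44.3% of all genes tested, and the reverse held for Eif2ak2 and Parp14, 2 genes, against 26.9%. With ties counted for each library, the highest library was wt replicate 1 for 14 genes, ZnF1 mutant replicate 1 for 15 and ZnF4 mutant replicate 1 for 1. The lowest was ZnF4 mutant replicate 2 for 16 genes. Within pairs of the same number, ZnF4 mutants were below wt in both pairs for 22 genes, against 31.1% of all genes, and above in both for 5 (Bst2, Eif2ak2, Ifih1, Oas3 and Oasl2), against 42.5%. ZnF1 mutants were above wt in both pairs for 12 genes, against 33.5%, and below in both for 7, against 35.1%. Between the mutants, ZnF4 mutants were below ZnF1 mutants in both pairs for 25 genes, against 34.8%, and above in both for 2 (Bst2 and Ifih1), against 41.2%. The 22 include Ifit1, Oas2 and Mx1, and the 25 include Ifit1 and Oas2. These genes reached 1 RPKM in wt and ZnF1 mutant libraries only, which favours lower ZnF4 mutant values, and Ifih1 reached it in mutant libraries only.

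**Figure D4:**
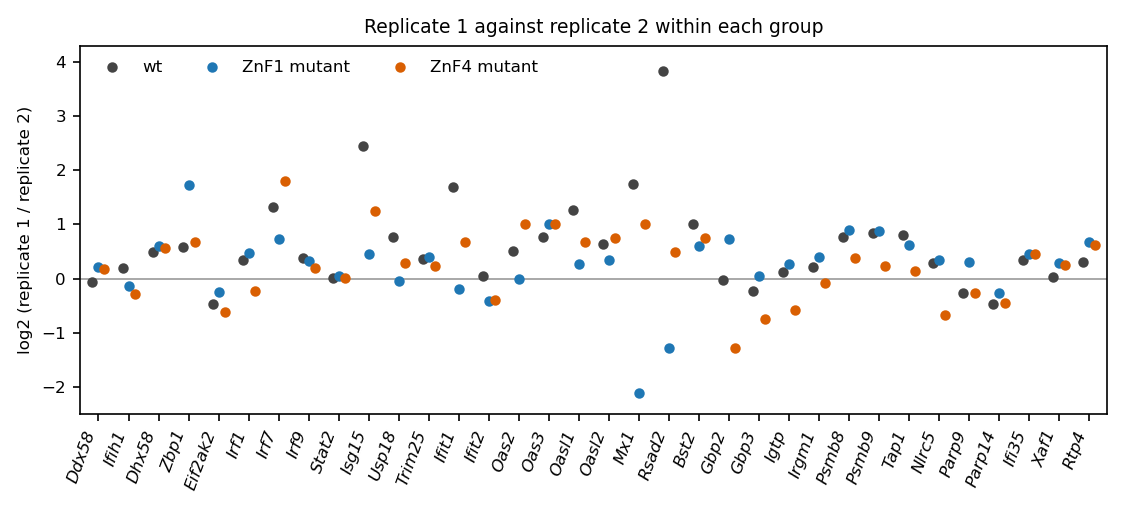
Log2 of the ratio of replicate 1 to replicate 2 RPKM for each of the 34 expressed genes, with 1 point per group; 0 means equal replicates. Most points lie above 0, Rsad2 in wt is the highest (a ratio of 14.3), and Mx1 and Rsad2 in ZnF1 mutants lie far below 0.

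With 2 libraries in a group, many calls rested on single libraries. In the fits with the block that left out 1 library, Ddx58 and Zbp1 kept their calls against wt, and Ddx58, Zbp1, Gbp2, Gbp3 and Stat2 those between the mutants, in all 6 fits. In ZnF4 mutants against wt, Ifih1 (limma adjusted p = 0.080 to 0.16), Stat2 (0.21 to 0.36) and Trim25 (0.12 to 0.27) lost their calls without any 1 of the wt or ZnF4 mutant libraries. Gbp3 lost its call there without either wt library (0.087 and 0.082), Bst2 without wt replicate 2 or either ZnF4 mutant library (0.093 to 0.12), and Nlrc5 without any 1 library other than ZnF4 mutant replicate 2 (0.070 to 0.27). In ZnF1 mutants against wt, Stat2 and Bst2 lost theirs without any 1 of the 6 libraries (0.066 to 0.29), and Dhx58 (0.059 to 0.19) and Gbp3 (0.056 to 0.19) without any 1 of the wt or ZnF1 mutant libraries. Between the mutants, Ifi35 and Xaf1 lost theirs without any 1 of the 6 libraries (0.056 to 0.22), Trim25 without any but ZnF1 mutant replicate 2 (0.073 to 0.15), Ifih1 without any but wt replicate 1 (0.055 to 0.19), Oas2 without ZnF1 mutant replicate 2 or either ZnF4 mutant library (0.063 to 0.13), and Dhx58 and Parp14 without either ZnF4 mutant library (0.053 to 0.071). Without the block, the calls between the mutants were kept for Gbp2 only without wt replicate 1 (0.048), for Gbp3 only without either wt library (0.035 and 0.037), and for Ddx58 and Zbp1 in 0 of 6 fits (0.054 to 0.22).

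A wider list of 176 other genes of the pathway, of which 172 were in the table and 128 were expressed, showed where the rest of the response stood. In ZnF4 mutants against wt 86 of the 128 had a lower mean and 42 a higher one, where 42.7% of all genes were lower and 56.8% higher, with a median log2 difference of -0.19. In limma 9 fell and 0 rose without the block (7.03% called, against 2.72% of all genes), and 26 fell and 9 rose with it (27.3%, against 15.9%). Sp100, a nuclear body protein, was at 17.1 and 21.5 RPKM in wt, 23.2 and 31.8 in ZnF1 mutants and 4.8 and 4.8 in ZnF4 mutants, and fell there, with a log2 difference of -1.80 from wt (limma adjusted p = 0.023 without and 0.0017 with the block). Slfn2, a member of the Schlafen family linked to lymphocyte quiescence, was at 156.5 and 138.8, 258.4 and 198.4, and 47.4 and 49.8 RPKM, and fell with a difference of -1.58 (0.024 and 0.0022). Slfn9 of the same family went the other way, with 6.7 and 10.1 RPKM in wt, 10.9 and 14.8 in ZnF1 mutants and 18.2 and 24.7 in ZnF4 mutants. It rose with the block by 1.26 (0.0012, and 0.11 without it).

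In ZnF1 mutants against wt 0 genes of the wider list were called without the block, with 20 of the 128 at an unadjusted p under 0.05 (1281 of all 11345 genes), and 25 rose and 2 fell with it (21.1%, against 13.2% of all genes). The 4 with the lowest p all rose with the block. Ifi27l2a was at 16.9 and 13.5 RPKM in wt and 42.8 and 29.0 in ZnF1 mutants, a difference of 1.17 (limma adjusted p = 0.0060, and 0.18 without the block). Tdrd7 was at 2.9 and 3.0 against 6.5 and 7.3 RPKM, and Samhd1, which destroys deoxynucleotides, at 10.1 and 11.0 against 20.7 and 28.1. Tlr9, the endosomal sensor of CpG DNA, was at 9.2 and 5.9 against 18.3 and 13.7 RPKM. The adjusted p of these 3 with the block were 0.0060, 0.0067 and 0.0076, and without it 0.095, 0.10 and 0.30. Samhd1 and Tlr9 are also expressed by macrophages, whose marker sums were higher in the ZnF1 mutant libraries, and the part of these cells was not tested. Between the mutants 13 genes of the wider list were lower in ZnF4 mutants and 0 higher without the block (10.2%, against 5.37% of all genes), and 57 and 8 with it (50.8%, against 35.1%). With the block and 1 library left out, the calls of Ifngr1, Gbp5, Sp100, Slfn2 and Slfn9 in ZnF4 mutants against wt were kept in all 6 fits. Ifnar2 lost its call there without any 1 of the wt or ZnF4 mutant libraries (0.15 to 0.29), and Tmem173 without either wt library or ZnF4 mutant replicate 1 (0.076 to 0.13). In ZnF1 mutants against wt, Ifngr1 lost its call without either wt library or ZnF1 mutant replicate 1 (0.083 to 0.16), Ifi27l2a and Tdrd7 without wt replicate 2 or ZnF1 mutant replicate 1 (0.051 to 0.071), Samhd1 without wt replicate 2 (0.069) and Tlr9 without either wt library (0.063 and 0.080).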

How the data were processed

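Polyadenylated RNA was sequenced from 6 cultures, 2 in each of 3 groups taken from the labels. The deposited table, made by the authors, holds RPKM per RefSeq transcript and library to 1 decimal, with the transcript length in bases, per the file headers. TopHat, bedtools and build mm9 are listed, without versions, per the submitters' processing notes. How multiply mapped or overlapping reads were counted, whether strand was used, and the depth are not given in the sources used here, so no counting interval is given.

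Transcripts were summed per symbol to 22099 genes, after restoring 39 of 40 symbols that a spreadsheet had changed and leaving out 1 row without a gene. The 11345 genes that reached 1 RPKM in 2 or more libraries were fitted with limma 3.58.1 (R 4.3.3, eBayes with trend) on log2(RPKM + 1), a scale that understates the change of low genes, in 1 fit of 3 group means, two-sided, with Benjamini-Hochberg adjustment over all genes and a threshold of 0.05. The procedure was also run on values simulated from its own fitted spread, which cannot show whether its assumptions hold for these libraries. As each group holds 2 libraries, the p-values reflect only the spread between these libraries. Standard errors are from the fit without the replicate block unless stated.

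The labels number the replicates but do not say what a number shares. Across genes, the deviations from the group mean correlated between libraries of the same number at 0.5002 (wt and ZnF1 mutant), 0.7539 (wt and ZnF4 mutant) and 0.7148 (ZnF1 and ZnF4 mutant), so a second fit, which adds the replicate number as a block, is given beside the first.

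The genes and lists were chosen with earlier results of these data known. Values in every library are given for members that passed in either fit, the 3 with the largest fold changes in each comparison, the 3 highest and 3 lowest means, sensors and transcription factors, and from the wider pathway for fixed genes (1 is not reported here) and the 4 with the lowest p in each comparison; Ifngr2 and the other Gbp genes were chosen after their values were seen. Alternatives were other pseudocounts (0.1 and 5), filters, scalings, row choice, only the libraries compared, and leaving out single libraries or the 2 libraries with the most granulocyte transcripts; the block together with leaving out a library was added after seeing the data.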

Additional observations from a re-analysis of the deposited data

How the results depend on the processing

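The 54 gene and comparison pairs followed had passed the threshold in the fit without or with the block, a choice that favours stable signs. In these pairs 1184 of 1184 values under the alternatives kept the sign of the main fit. Signs over all members were less stable. Without wt replicate 1, of 32 members tested, 28 were higher and 4 lower in ZnF1 mutants against wt, and 12 higher and 20 lower in ZnF4 mutants. With the replicate block the genes called numbered 1502 (ZnF1 mutant against wt), 1809 (ZnF4 mutant against wt) and 3979 (ZnF4 against ZnF1 mutant), in place of 0, 309 and 609, and the members called 4, 8 and 12, in place of 0, 1 and 4. For ZnF1 mutant against wt, median scaling called 1 gene. For ZnF4 mutant against wt, a minimum of 5 RPKM called 176 genes and the 4 libraries compared alone 131, quantile normalization and median scaling each called 2 members (Ddx58 and Zbp1), and without the filter on low values 0 were called (Ddx58 at an adjusted p of 0.051, with 10 members at an unadjusted p under 0.05). For ZnF4 against ZnF1 mutant, a minimum of 5 RPKM called 323 genes, the 4 libraries alone 324 genes and 2 members, and a pseudocount of 5 gave a member median of -0.20. Without wt replicate 1 and ZnF1 mutant replicate 2, the libraries with the most granulocyte transcripts, 0 genes and 0 members passed in limma (765, 781 and 1246 genes at an unadjusted p under 0.05), with 1 residual degree of freedom, and the member medians were 0.41, -0.14 and -0.53; no replicate block could be fitted there. The cause of these shifts was not tested, apart from fewer libraries or genes in some fits.

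Leaving out 1 library without the block gave 0, 0 to 119 and 0 to 306 genes, 0, 0 to 1 and 0 to 2 members, and member medians of -0.05 to 0.26, -0.56 to -0.14 and -0.54 to -0.21. With the block it gave 0 to 945, 404 to 2044 and 1291 to 2959 genes and 0 to 4, 2 to 10 and 5 to 9 members. The lone library left in a group was assumed to vary like the others. Depth is unknown, and values near 0.1 RPKM rest on the rounding of the table.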
